A study of Bos taurus with 111 samples.

Results

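GSTM3 (ENSBTAG00000001842) was the 1 gene described here, out of 24616 genes counted in muscle biopsies of beef steers, and it was followed in 104 libraries, with 7 others left out. It was selected on measured values of these same libraries, namely its counts per 1000000 reads on genes (CPM) by breed, diet and feed efficiency class and its constancy in steers sampled more than once. Those values are therefore given as a description with no test. The steers were of a beef breed, Charolais (CH), or a dairy breed, Holstein-Friesian (HF), and gave biopsies of the loin muscle, M. longissimus thoracis et lumborum. They had a mean age of 283 d and 306 d respectively, at the start. Steers were ranked within breed and phase on residual feed intake (RFI), the feed eaten beyond that predicted from size and growth, and the extremes were kept as efficient (L-RFI) or inefficient (H-RFI). Each test lasted 70 d and was run on a barley-based concentrate diet while the steers were growing (H1), then on zero-grazed grass, cut and carried to them (ZG), and lastly on the same concentrate in the finishing period (H2). Mean weight at the start of the 3 phases was 395, 519 and 675 kg in CH and 294, 441 and 611 kg in HF. Diet, age and weight therefore changed together and cannot be told apart. The 104 libraries came from 77 steers (35 CH and 42 HF), with 7 to 11 libraries in each of the 12 groups of breed, diet and RFI class.

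GSTM3 encodes a glutathione S-transferase of the mu class. These enzymes join glutathione to electrophilic compounds, including products of lipid oxidation and many foreign chemicals, so that the cell can export them. Mu-class genes lie side by side in mammalian genomes, and in humans whole copies of some members are commonly missing from the genome, so that their expression differs sharply between people. In cattle, the RefSeq annotation of ARS-UCD2.0 places GSTM3 between EPS8L3, which encodes a regulator of the actin cytoskeleton, and a row of mu-class loci that includes GSTM2 and genes with the synonyms GSTM1 and GSTM4. Counting short single-end reads can divide or drop reads shared by near-identical copies, so the GSTM3 level is uncertain to that extent. Of the 70 symbols in the glutathione and NRF2 lists, GSTM3 alone could be matched to an identifier, so no count over the rest of the pathway was made.

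The libraries used held 2201765 to 52552057 reads on genes (median 15852125.5), of which 100 to 5130 (median 620) were on GSTM3. At most 5 reads per library lay on the opposite strand of the gene. Left out were 6 libraries with under 1000000 reads on genes, in which GSTM3 had 1 to 16 reads, and the library labelled as muscle of H-RFI CH steer 571 on ZG. That library went against its label. It held ALB, the albumin gene, at 101449 CPM against a highest value of 8576 in the libraries used, and CSRP3, a protein of the muscle sarcomere, at 0.145 CPM against 13.8 to 2406. The next highest sum of 4 plasma protein transcripts (ALB, FGB, FGG and AHSG) was 13433 CPM, in H-RFI HF steer 5616 on ZG, whose GSTM3 level was 121 CPM. None of the 10 skeletal muscle markers fixed for the check of the tissue could be matched to an identifier.

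Libraries of the same steer number were also compared, since 25 steers gave 2 or 3 libraries (29 pairs). For each steer, the 30 genes that differed most between steers and least within them were taken from the other steers, leaving GSTM3 out. Over those genes 25 pairs, from 21 steers, correlated at r = 0.455 to 0.929 (median 0.714), after the mean of each breed and diet was removed. The 4 remaining pairs, of CH steers 1484 and 1320 and HF steers 1811 and 5612, correlated at r = -0.271 to -0.0937. The libraries of these 4 steers were thus unlike each other, so the group differences and the constancy of GSTM3 are given with and without them. With 60 or 100 genes the same 4 pairs had the lowest correlations, at most -0.0322 and 0.0232 against at least 0.235 and 0.135 in the others. With 200 genes the 2 sets of pairs overlapped, the 4 reaching 0.113 and the others going down to 0.0161.

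GSTM3 was present in every library used and varied 16.8-fold, from 10.7 to 180 CPM with a median of 48.2 CPM. The 49 CH libraries ranged from 10.7 to 149 CPM (median 24.7; mean 39.3 ± 30.9, SD). The 55 HF libraries ranged from 12.0 to 180 CPM (median 61.7; mean 72.8 ± 45.8, SD). The breeds overlapped over nearly the whole range, but 25 CH and 11 HF libraries were under 25 CPM, whereas 2 CH and 15 HF libraries were over 100 CPM. Counted per steer, with the libraries of a steer averaged, 42.9% of 35 CH steers and 19.0% of 42 HF steers were under 25 CPM. Over 100 CPM were 1 CH steer (2.86%) and 11 HF steers (26.2%).

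The spread was larger than counting error. On the log2(CPM + 0.5) scale, with breed and diet means removed, the SD over libraries was 1.02, against a counting SD of 0.0580 in the median library and 0.144 in the one with the fewest GSTM3 reads. The median gene of the 10291 that passed a filter on low counts had an SD of 0.58, and 11.4% of genes had a larger SD than GSTM3. The widest empty interval in HF lay between 23.3 CPM and 33.6 CPM, with 11 libraries below and 44 above it. In CH, no library lay between 33.4 CPM and 43.2 CPM, with 32 libraries below and 17 above, and the highest library, at 149 CPM, stood apart from the next at 110 CPM. These gaps describe the libraries in hand and were not tested.

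In H1, the 10 H-RFI CH steers ranged from 11.7 to 68.2 CPM (median 25.6) and the 8 L-RFI CH steers from 10.7 to 77.7 CPM (median 31.0). In H2, the 7 H-RFI CH steers ranged from 16.5 to 110 CPM (median 32.5) and the 7 L-RFI CH steers from 18.9 to 87.1 CPM (median 43.2). Both classes of CH steers on concentrate thus covered much the same range.

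On ZG, the 8 H-RFI CH steers ranged from 11.2 to 149 CPM (median 20.4), and the 9 L-RFI CH steers from 15.7 to 30.6 CPM (median 19.1). The L-RFI group was the narrowest of all 12, with a 1.95-fold range. The H-RFI steers fell apart into 5 at or below 22.1 CPM, within or below the range of the L-RFI steers, and 3 above it, at 75.4 CPM (steer 437), 77.5 CPM (steer 427) and 149 CPM (steer 1484).

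In HF on H1, GSTM3 ranged from 15.9 to 124 CPM (median 56.6) in 11 H-RFI steers and from 15.2 to 135 CPM (median 70.0) in 9 L-RFI steers. On ZG it ranged from 17.4 to 180 CPM (median 68.8) in 10 H-RFI steers and from 12.0 to 175 CPM (median 48.0) in 9 L-RFI steers. On H2 the ranges were 13.7 to 118 CPM (median 59.8) in 8 H-RFI steers and 18.4 to 168 CPM (median 68.2) in 8 L-RFI steers. The RFI classes overlapped on every diet, and each of the 6 HF groups held steers under 25 CPM and steers over 100 CPM.

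Ordered by median, the 6 HF groups took the first 6 places, from 70.0 CPM in L-RFI steers on H1 to 48.0 CPM in L-RFI steers on ZG. The 6 CH groups followed, from 43.2 CPM in L-RFI steers on H2 to 19.1 CPM in L-RFI steers on ZG. No 2 neighbours in this order differed by as much as the SD within groups, which was 1.06 on the log2 scale.

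**Figure D1:**
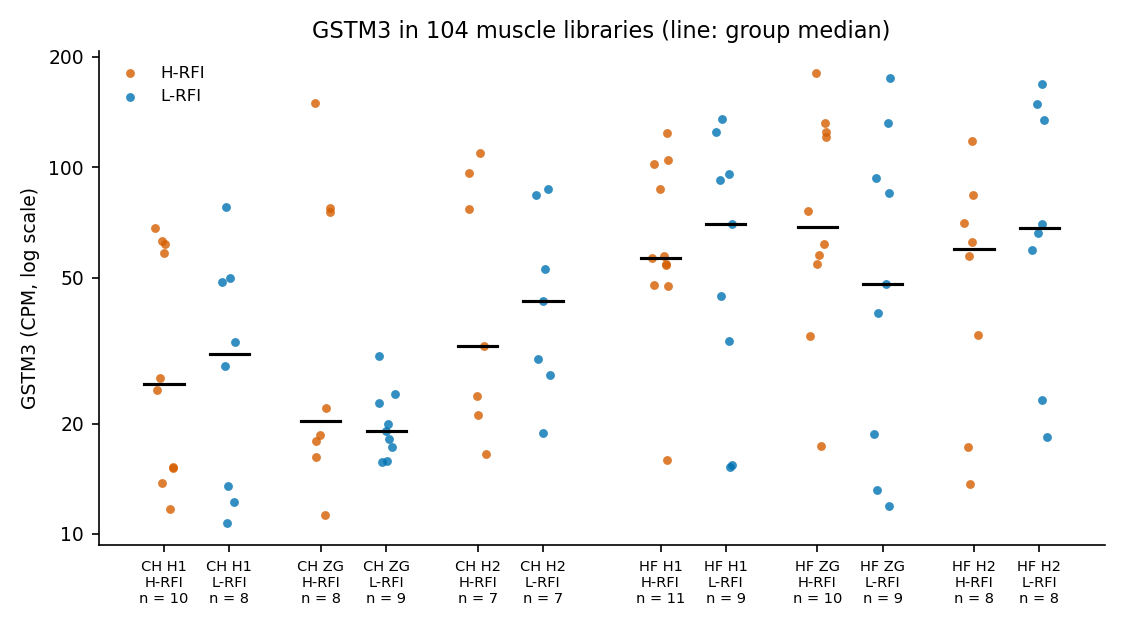
GSTM3 level (CPM, log axis) in each of the 104 libraries, by breed, diet and RFI class, with a line at each group's median. The L-RFI CH steers on ZG lie between 15.7 and 30.6 CPM, while every HF group spreads from under 25 CPM to over 100 CPM.

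The log2 differences below come from fits across all genes and carry a standard error (SE) but no p-value for GSTM3. Between breeds, GSTM3 was lower in CH than in HF on each diet, by a log2 difference of -0.94 (SE 0.29) on H1, -1.01 (SE 0.39) on ZG and -0.47 (SE 0.36) on H2. Without the 4 steers whose libraries were unlike each other, the differences were -0.86 (SE 0.30), -1.38 (SE 0.36) and -0.54 (SE 0.38), respectively. The edgeR quasi-likelihood test called 1.03% of 10695 genes between breeds on H1, 0.509% of 10211 on ZG and 0.01% of 9966 on H2, at an adjusted p under 0.1 and a fold change over 1.5. On ZG that number of genes was 52 with the 4 steers and 1 without them.

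Genes of other cell types could be matched only where the study had called them in these same data. They also had lower values in CH, of which few were called. Of the 4 matched immune and blood markers, 2 were lower in CH on H1 by this test, namely PTPRC, the common leukocyte antigen (log2 difference -0.97, SE 0.29, adjusted p = 0.0948 by edgeR's quasi-likelihood test), and S100A12, a calcium-binding protein of neutrophils (-1.37, SE 0.37, adjusted p = 0.0704). Over all diets, the summed level of the 4 immune and blood markers ran from 0.853 to 53.2 CPM in CH and from 0.762 to 119 CPM in HF. At least 1 marker (CD3E, LYZ or S100A12) was at 0 in 5 libraries. Of 4 plasma protein transcripts, 1 was lower in CH on H1, AHSG (-1.65, SE 0.49, adjusted p = 0.0948 in the same edgeR test). On ZG all 4 had values from -2.46 (FGG, SE 0.73) to -1.80 (AHSG, SE 0.57) with none called. Over all diets, the sum of these 4 transcripts ran from 21.6 to 400 CPM in CH and from 18.8 to 13433 CPM in HF. Neither adipocyte marker was called between breeds, but both had negative values on H1, ZG and H2, namely -1.53, -1.66 and -1.86 for FABP4, a fatty acid carrier of fat cells, and -0.99, -1.61 and -1.38 for CIDEC, a lipid droplet protein (SE 0.46 to 0.63). The part of these cells in the GSTM3 difference was not tested. In bulk tissue, fewer cells of a type and less RNA per cell cannot be told apart.

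Between L-RFI and H-RFI steers, GSTM3 differed by more than its SE in 2 of the 6 comparisons, and in opposite directions. It was lower in L-RFI steers in CH-ZG (log2 difference -1.08, SE 0.50) and higher in L-RFI steers in HF-H2 (0.83, SE 0.48). The latter was 1.00 (SE 0.45) without the 4 steers with unlike libraries. In CH-H1, CH-H2, HF-H1 and HF-ZG the difference was -0.18 (SE 0.40), -0.06 (SE 0.47), 0.25 (SE 0.37) and -0.08 (SE 0.52), and without the 4 steers -0.26, -0.16, 0.33 and 0.06. The CH-ZG difference leaned on steer 1484, one of the 4 steers with unlike libraries, and was -0.49 (SE 0.43) without them. It was -1.57 (SE 0.55) with every library, steer 571 and the shallow libraries included. The adipocyte markers also had negative values in CH-ZG, -2.14 (SE 0.74) for FABP4 and -2.29 (SE 0.72) for CIDEC, neither of them called (adjusted p = 0.9998 for both, edgeR quasi-likelihood test). Both markers, and GSTM3 itself, came from the study's list of called genes, which reported each as lower in L-RFI CH steers on ZG. The signs of the markers and of GSTM3 here are therefore not independent of how they were matched. In HF-H2 the values of FABP4 and CIDEC were 0.16 (SE 0.54) and 0.31 (SE 0.61). Those of the immune markers PTPRC, CD3E and LYZ were -2.03 (SE 0.93), -0.88 (SE 0.66) and -1.56 (SE 0.90) there, with none called. Negative marker values were not confined to these 2 comparisons. In CH-H2, FABP4 and CIDEC had -2.33 (SE 0.62) and -2.14 (SE 0.79), with GSTM3 at -0.06. In HF-H1 they had -1.33 (SE 0.72) and -1.09 (SE 0.70), with GSTM3 at 0.25. Both were negative in CH-H1, and in HF-ZG they had -0.48 and 0.37. In HF-ZG, PTPRC, CD3E and LYZ had -1.67 (SE 0.67), -0.59 (SE 0.58) and -1.55 (SE 0.75), with GSTM3 at -0.08. In HF-H1 these 3 had 0.05, 0.45 and -0.13. S100A12 had -1.28 (SE 0.65) in HF-ZG and 0.53 (SE 0.50) in HF-H1, and PTPRC had 1.00 (SE 0.84) in CH-H2. The 4 plasma protein transcripts had -2.84 (FGG, SE 1.09) to -1.63 (AHSG, SE 0.86) in HF-ZG, and -0.87 (ALB, SE 0.53) to 0.15 (AHSG, SE 0.40) in CH-ZG. They were negative in CH-H2 and HF-H2 and positive in CH-H1 and HF-H1, with none called. The part of the markers in the GSTM3 differences was not tested.

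Means of log2(CPM + 0.5) were also compared, which give less weight to high values than the fit and lack its TMM scaling. L-RFI minus H-RFI was then -0.69 in CH-ZG, and lay between -0.90 without steer 449 and -0.38 without steer 1484. In HF-H2 it was 0.53 and lay between 0.28 without steer 1661 and 0.79 without steer 5612. In HF-ZG it was -0.59, lying between -0.83 without steer 1668 and -0.35 without steer 5632. In the other 3 comparisons the sign changed when single steers were left out. In HF-H1 (-0.17) and CH-H2 (0.03) the sign was opposite to that of the fit. The parts of weighting and scaling in this were not tested.

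The edgeR quasi-likelihood test called 0.0% of the genes between RFI classes in CH-H1, CH-ZG, CH-H2, HF-H1, HF-ZG and HF-H2 alike, from 9823 to 10812 genes tested. At an unadjusted p under 0.05 there were 216, 79, 89, 317, 1228 and 72 genes in that order. These were out of 10596, 9823, 10070, 10812, 10571 and 9936 genes tested. If no gene differed, a share of about 0.05 would be under that p, and only the HF-ZG count exceeded this share. DESeq2 called 2, 0, 2, 0, 1 and 0 genes, and edgeR's exact test 2, 0, 1, 0, 0 and 0.

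**Figure D2:**
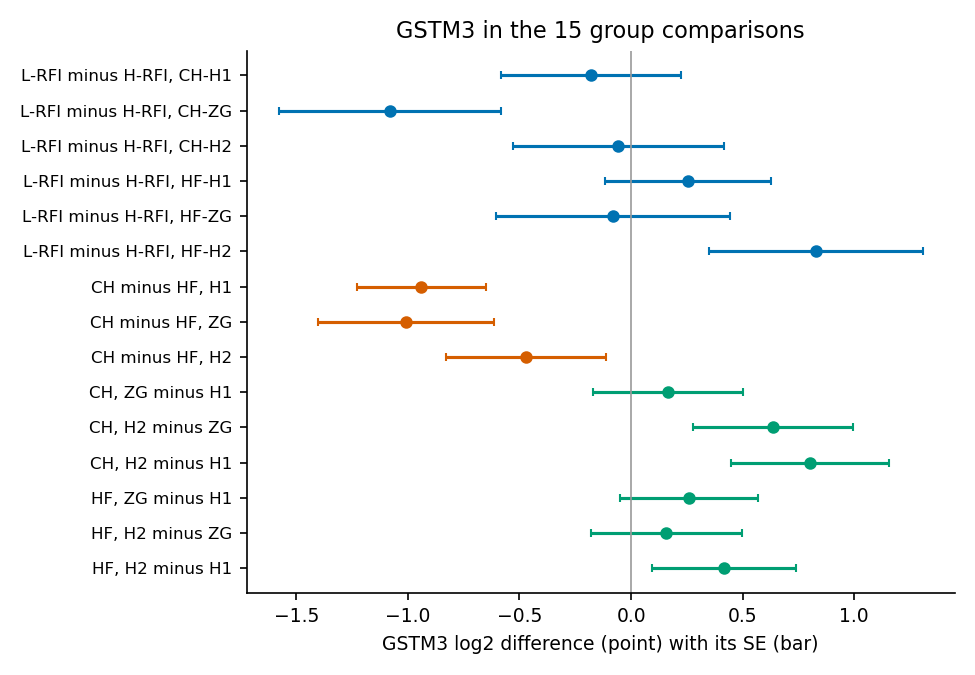
GSTM3 log2 difference (point) with its SE (bar) in the 15 comparisons, for RFI class (blue), breed (orange) and diet (green). The breed differences are all below 0, from -1.01 to -0.47, and the RFI differences lie on both sides of 0, from -1.08 in CH-ZG to 0.83 in HF-H2.

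Across diets, GSTM3 was highest on H2 in the fits with steer as a block, though in HF it differed from ZG by less than its SE. The block used a correlation shared by all genes, -0.107 in CH and 0.354 in HF. Over both breeds, a share of 0.576 of the variance of GSTM3 lay between repeat steers, so the fits understate the pairing for this gene. In CH the log2 difference was 0.80 (SE 0.35) between H2 and H1, 0.64 (SE 0.36) between H2 and ZG, and 0.17 (SE 0.34) between ZG and H1. Without the 4 steers these were 0.77 (SE 0.36), 0.87 (SE 0.36) and -0.10 (SE 0.33). In HF it was 0.42 (SE 0.32) between H2 and H1, 0.16 (SE 0.34) between H2 and ZG, and 0.26 (SE 0.31) between ZG and H1, and without the 4 steers 0.58 (SE 0.32), 0.22 (SE 0.34) and 0.36 (SE 0.29). The HF differences depended on the method. There the plain mean of log2(CPM + 0.5), with neither TMM scaling nor block, was 5.86, 5.88 and 5.81 on H1, ZG and H2. In CH the plain means were 4.84, 4.68 and 5.42, so ZG against H1 had the opposite sign to the fit there. The same limma voom fits called 2.01%, 0.962% and 2.78% of the genes in CH and 20.6%, 8.68% and 0.764% in HF, in that order of comparisons.

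Both matched adipocyte markers rose on H2 in HF. FABP4 rose against H1 by 2.18 on the log2 scale (SE 0.45, adjusted p = 0.000356, limma voom), and CIDEC by 2.61 (SE 0.50, adjusted p = 0.000161, limma voom). Against ZG they rose by 1.28 (SE 0.46, adjusted p = 0.0570, limma voom) and 1.47 (SE 0.50, adjusted p = 0.0469, limma voom). Neither was called between diets in CH, but both had positive values on H2 there too. Against H1 these were 1.31 (SE 0.58) for FABP4 and 1.47 (SE 0.51) for CIDEC. Against ZG both were also positive and larger than their SE in CH. Between ZG and H1 in CH, the value of each was smaller than its SE. Over all diets, the summed adipocyte markers ran from 0.123 to 60.3 CPM in CH and from 1.64 to 141 CPM in HF, and FABP4 was at 0 in 1 library. Of the 4 immune and blood markers tested between H2 and H1 in HF, 1 was called, PTPRC (-1.05, SE 0.48, adjusted p = 0.0805, limma voom). The part of these markers in the GSTM3 differences was not tested.

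Libraries of a steer mostly held GSTM3 at similar levels, with exceptions in steers whose libraries were unlike. All 29 pairs of libraries differed 1.30-fold in the median and 7.08-fold at most. Among the 21 steers whose libraries were alike, the 25 pairs of libraries differed 1.29-fold in the median and 2.31-fold at most, with 20 pairs under 1.5-fold and 23 under 2-fold. Libraries of different steers of the same breed, in 2632 pairs, differed 2.03-fold in the median, and 51.0% of those pairs differed by more than 2-fold. Pairs of libraries share steers, so these figures are descriptions only.

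Several steers were at the low end of the range in each library used. CH steer 449 had 11.7 CPM on H1 and 11.2 CPM on ZG. CH steer 1100, sampled on all 3 diets, had 12.2, 15.8 and 16.5 CPM. HF steer 5632 had 15.5 CPM on H1 and 12.0 CPM on ZG, and HF steer 5613 had 15.9 and 17.4 CPM on the same diets. These 4 steers, and CH steer 310 with 22.7 CPM on ZG and 18.9 CPM on H2, were under 25 CPM in each of their libraries that were used. A shallow library of steer 5632 on H2, left out, held 1 GSTM3 read and cannot place the steer.

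At the other end, HF steer 1639 had 125 CPM on ZG and 118 CPM on H2. HF steer 2065 had 102 CPM on H1 and 132 CPM on ZG, and HF steer 5635 had 104 and 93.2 CPM. In the middle, HF steer 2069 had 54.1 CPM on H1 and 54.6 CPM on ZG, and CH steer 1492 had 30.6 CPM on ZG and 29.9 CPM on H2. The largest changes among the 21 steers were in CH steer 307, with 24.7, 18.7 and 43.2 CPM on H1, ZG and H2, and in HF steer 2095, with 70.0 CPM on H1 and 149 CPM on H2.

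**Figure D3:**
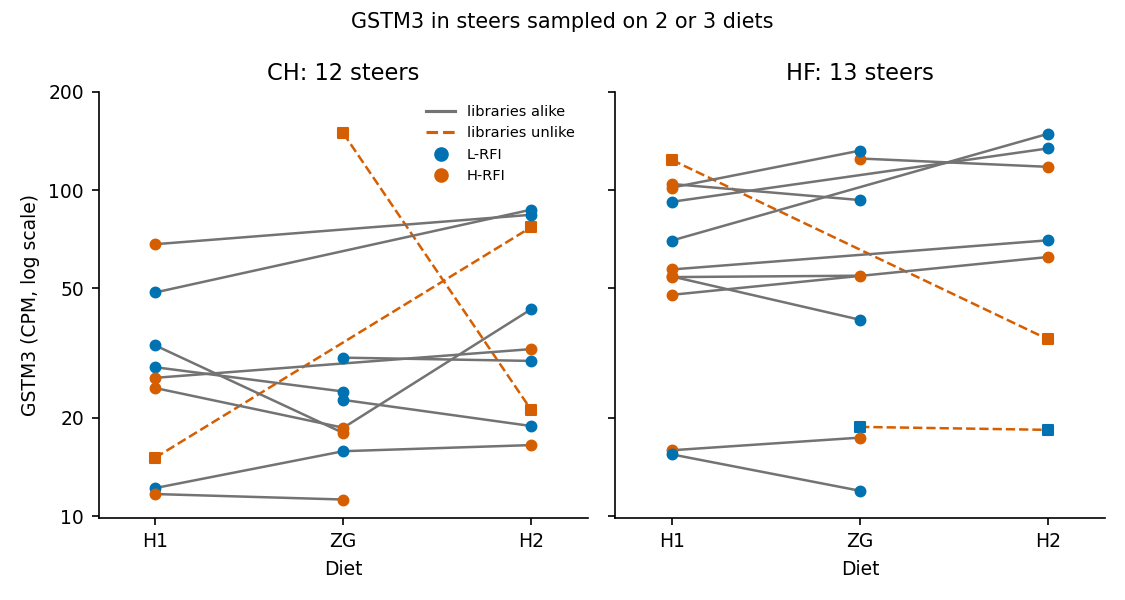
GSTM3 level (CPM, log axis) in the 25 steers sampled on 2 or 3 diets, 12 CH and 13 HF, each line joining the libraries of a steer. Blue points are libraries taken as L-RFI and orange points libraries taken as H-RFI. Grey lines, for the 21 steers whose libraries were alike, change 2.31-fold at most, whereas dashed orange lines, for the 4 steers whose libraries were unlike, change 3.55-fold to 7.08-fold in 3 cases.

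Of the 4 steers with unlike libraries, 3 had the largest differences of GSTM3 in the whole set of pairs. Steer 1484 had 149 CPM on ZG and 21.1 CPM on H2 (7.08-fold), steer 1320 had 15.1 CPM on H1 and 77.1 CPM on H2 (5.11-fold), and steer 1811 had 124 CPM on H1 and 34.8 CPM on H2 (3.55-fold). The fourth, steer 5612, had 18.8 CPM on ZG and 18.4 CPM on H2 (1.02-fold). Whether those libraries carried the right steer number was not tested beyond the correlations above.

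**Figure D4:**
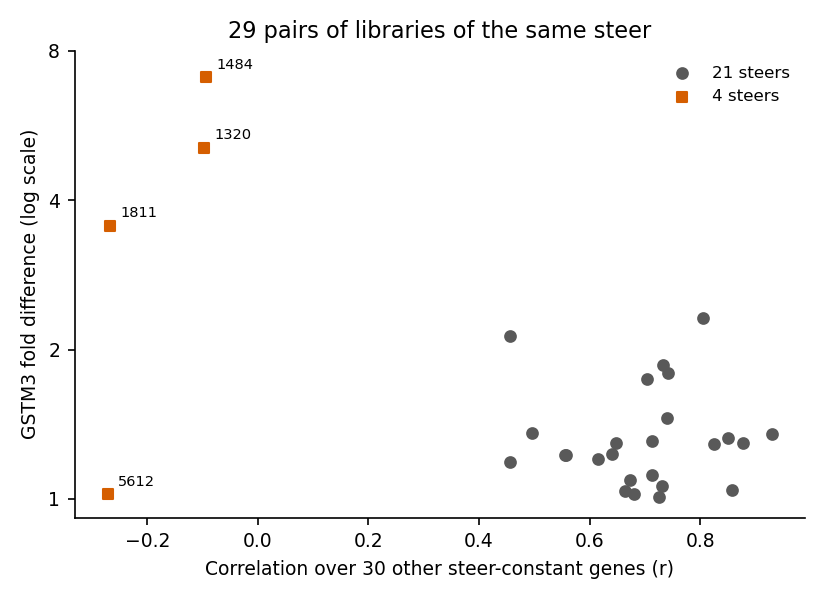
Fold difference of GSTM3 (log axis) in each of the 29 pairs of libraries of the same steer, against the correlation of those libraries over 30 other genes that differed between steers. The 25 pairs of 21 steers (grey circles) have r of at least 0.455 and differ 2.31-fold at most, and 3 of the 4 other pairs (orange squares, with steer numbers) differ 3.55-fold to 7.08-fold.

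Expressed as a share of variance, 57.6% of the variance of log2 GSTM3 among the 25 repeat steers lay between steers, once breed and diet means were removed (SD 0.78 between and 0.67 within steers). Leaving out each repeat steer in turn gave shares of 0.504 (without steer 5632) to 0.762 (without steer 1484). Without the 4 steers the share was 0.857, with an SD of 0.86 between and 0.35 within steers. The median gene had a share of 0.0864 with all 25 steers and of 0.0931 without the 4. With all 25 steers, GSTM3 was 75th of 10291 genes (0.719% had a higher share), and without the 4 it was 11th (0.0972% higher).

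Genes with a name were only those that the study had called in these same data, so they do not stand for genes in general. Among the 119 of them that passed the filter, GSTM3 had the seventh highest share with all 25 steers, the median being 0.146. Above it were RPL12, a ribosomal protein (0.836, median level 13.2 CPM), ART5, an ADP-ribosyltransferase (0.774, 11.9 CPM), and PLEK, pleckstrin of platelets and leukocytes (0.693, 1.70 CPM). They were followed by CYP4B1, a cytochrome P450 (0.661, 1.13 CPM), MICAL2, which oxidises actin (0.653, 38.0 CPM), and NMRAL1, a sensor of NADPH (0.594, 8.03 CPM). MYH4, a myosin heavy chain of fast fibres, came next after GSTM3 (0.571, 3.24 CPM). Of these 8 genes, GSTM3 had the highest CPM, at a median of 48.2, though CPM does not allow for gene length.

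Steers sampled on both concentrate diets had more GSTM3 at the later date. Of the 9 such steers with alike libraries, all 9 had a higher CPM on H2 than on H1, by 1.22-fold to 2.12-fold (median 1.34-fold, on the log2(CPM + 0.5) scale). The CPM went from 48.5 to 87.1 in CH steer 322, from 68.2 to 84.0 in CH steer 856, from 26.6 to 32.5 in CH steer 443, from 24.7 to 43.2 in CH steer 307 and from 12.2 to 16.5 in CH steer 1100. In HF it went from 70.0 to 149 in steer 2095, from 92.1 to 134 in steer 2220, from 47.7 to 62.4 in steer 2071 and from 57.1 to 70.2 in steer 1920. Over all genes, 0.165% of the 10291 were higher on H2 in all 9 steers.

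With libraries scaled by TMM, 8 of the 9 steers were higher on H2. Without TMM scaling, and with the other 2 steers sampled on both diets, 1320 and 1811, it was 10 of 11. The summed adipocyte markers were higher on H2 in 7 of the same 9 steers and the summed immune and blood markers in 2, and their part in the change was not tested. Between H1 and ZG, 4 of 11 steers were higher on ZG and 7 lower, with a median of 0.893-fold. Between ZG and H2, 2 of the 7 steers were higher on H2 and 5 lower, with a mean log2 difference of -0.28. Of the 5 with alike libraries, 2 were higher and 3 lower, with a mean of 0.17.

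The RFI class of 8 repeat steers changed between diets, which sets the 2 classes side by side in the same animal. GSTM3 was higher when the steer was L-RFI in 5 of the 8 and lower in 3, with a median log2 difference of 0.30 (SD 0.51). The largest were CH steer 307 (43.2 CPM as L-RFI, mean of 21.7 CPM as H-RFI) and CH steer 1816 (33.4 and 17.98 CPM), and the most opposite was HF steer 2064 (40.0 and 54.3 CPM). The median was smaller than the spread between these steers, and diet changed along with the class.

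No gene followed GSTM3 closely from steer to steer. With 1 library for each of 77 steers and breed and diet means removed, the absolute Spearman correlation with GSTM3 was over 0.5 for 0 of 10415 genes and over 0.3 for 173. The highest values were 0.416 (ENSBTAG00000009902) and 0.402 (ENSBTAG00000005826), and in the 27 later libraries of the same steers these genes had 0.347 and -0.0611. The lowest were -0.478 (ENSBTAG00000047755) and -0.456 (ENSBTAG00000021008), with -0.0336 and -0.0659 in the later libraries. All values come from shared libraries and are descriptions with no p.

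Genes with a name were only those that the study had called in these same data. Among them the highest correlations were those of SLC27A6, a fatty acid transporter (0.298), COQ10B, a coenzyme Q-binding protein (0.254), and CTSS, the lysosomal protease cathepsin S (0.242). CCDC190, a coiled-coil protein (0.240), and SLC4A7, a bicarbonate transporter (0.231), followed. The lowest were AJM1, of apical cell junctions (-0.376), ZNF628, a zinc finger protein (-0.342), and SYN1, a synaptic vesicle protein (-0.340). All 8 came closer to 0 when libraries were scaled by TMM, with values from -0.160 to 0.163. The correlations also differed in size between breeds, that of AJM1 being -0.610 in 35 CH steers and -0.151 in 42 HF steers, a difference that was not tested.

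Markers of other cell types and sequencing depth were not used in choosing GSTM3, and its correlations with them were small. A p that misses the threshold does not show that there was no relation. Across the 77 steers, its correlation with the summed adipocyte markers was r = 0.160 and rho = 0.153 (adjusted permutation p = 0.750 and 0.889 over 5 relations, two-sided). With the immune and blood markers it was r = 0.0394 and rho = 0.0624 (adjusted permutation p = 0.916 and 0.889), and with the plasma protein transcripts r = 0.120 and rho = 0.0998 (adjusted permutation p = 0.750 and 0.889). With the log10 number of reads on genes it was r = -0.00852 and rho = -0.0216 (adjusted permutation p = 0.943 and 0.889), and with the percentage of reads mapped to several places r = 0.0737 and rho = -0.0162 (adjusted permutation p = 0.907 and 0.889). The unadjusted permutation p for r was 0.165, 0.733, 0.3001, 0.943 and 0.544 in that order, and for rho 0.185, 0.590, 0.389, 0.852 and 0.889. Without the 2 steers farthest out on each measure, r was 0.209, 0.0558, 0.0726, 0.0228 and -0.0479.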

How the data were processed

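RNA of muscle biopsies from 83 steers was analysed and 104 libraries from 77 of them were used, with breed, diet, RFI class and steer taken from the labels. Per the labels and the study's methods, stranded mRNA libraries were sequenced as single-end reads and aligned with STAR 2.5.1. The study's methods name ARS-UCD1.2 with STAR's gene counts, whereas the submitters' processing notes name UMD3.1, HTSeq, DESeq2 and FastQC 0.11.5, so no coordinates are given. The deposited files hold raw read counts for each gene, which the authors had not normalized or filtered. The reverse-strand counts were used (median 99.0% of stranded counts) and divided by the library's reads on genes to give CPM. Reads on no gene or several genes and reads mapped to several places stayed out of the totals (multimapped 4.56% to 35.0%).

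GSTM3 and the lists of genes were chosen with earlier results of these data known. Fits kept genes that reached 1 CPM in 50% or more of their samples, and TMM factors were used. RFI classes (6 comparisons) and breeds (RFI as covariate) were compared by edgeR 4.0.16 (quasi-likelihood), and diets by limma 3.58.1 voom with the steer as a block through duplicateCorrelation (correlation -0.107 in CH and 0.354 in HF), since the labels give the same animal's number to its libraries. Calls needed a Benjamini-Hochberg adjusted p under 0.1 and a fold change over 1.5. The between-steer share is a one-way variance split of log2(CPM + 0.5), with breed and diet means removed. The fits and the split were tested on simulated data. Permutation tests used 1e+05 permutations. Gene names came from the study's supplementary list of 159 named genes (151 in the counts). That list holds the genes the study called in these data, by RFI class or by the interaction of diet and breed. Markers could be matched only through it. Named were GSTM3, the 5 named genes of highest and 3 of lowest correlation with it, list members and, after their values were seen, the genes of highest between-steer share, CSRP3 and single steers. The number of columns from other series was 0. Alternatives were unstranded counts, TMM or RLE scaling, other pseudocounts, no filter, DESeq2 1.42.0, edgeR's exact test, fits without the block and other sets of libraries. R 4.3.3, Python 3.11.15, numpy 2.4.6 and matplotlib 3.10.9 were used.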

Additional observations from a re-analysis of the deposited data

Results flagged for a closer look

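The library of H-RFI CH steer 571 on ZG, which was not used in any comparison above, had the highest GSTM3 level of a library with over 1000000 reads on genes, 329 CPM (95% Wilson interval 319 to 339, counting error only). The highest level in the libraries used was 180 CPM. The same library held ALB at 101449 CPM, FGB at 20913 CPM, FGG at 14482 CPM, PTPRC at 70.1 CPM and FABP4 at 0 CPM, and MYH4 at 0.0724 CPM. In the libraries used, FABP4 and MYH4 also went down to 0 CPM, with medians of 3.85 and 3.24 CPM, and PTPRC reached 50.5 CPM. The steer had no other library, and the part of these transcripts in its GSTM3 level was not tested.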

How the results depend on the processing

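Of 90 alternative values of the 15 GSTM3 differences, 2 had another sign than the value reported. Both were without the 4 steers whose libraries were unlike, an alternative chosen after seeing the data: HF-ZG by RFI class (0.06) and CH between ZG and H1 (-0.10). All 90 scaled the libraries by TMM, RLE or DESeq2 size factors, so they cannot show the effect of leaving scaling out. Plain means of log2(CPM + 0.5), without scaling, had another sign than the fit in HF-H1 (-0.17) and CH-H2 (0.03) by RFI class. Between diets they did so for CH ZG against H1, and for HF H2 against H1 and against ZG. Under the alternatives tried, the median level ran from 24.7 to 29.5 CPM in CH and from 61.7 to 63.2 CPM in HF, and the SD over libraries of 1.02 was 1.11 with every library. The between-steer share was 0.857 without the 4 steers, 0.371 with every library and 0.572 to 0.606 under the other settings. The largest move was in CH-ZG by RFI class, which ran from -1.57 to -0.49. With single libraries left out, the mean differences between RFI classes ran from -0.90 to -0.38 in CH-ZG, 0.28 to 0.79 in HF-H2 and -0.83 to -0.35 in HF-ZG, and the sign changed in CH-H1 (-0.28 to 0.12), CH-H2 (-0.19 to 0.26) and HF-H1 (-0.36 to 0.06). The number of genes called between RFI classes was 0 in the quasi-likelihood fits, 2 (CH-H1), 2 (CH-H2) and 1 (HF-ZG) with DESeq2, and 2 (CH-H1) and 1 (CH-H2) with edgeR's exact test. Between breeds, the 110, 52 and 1 genes on H1, ZG and H2 were 197, 199 and 42 with DESeq2. On ZG they were 110 with no filter, and 1 with every library or without the 4 steers, and on H2 they were 2 with no filter and 0 without the 4 steers. Between diets, the 280 (ZG against H1), 97 (H2 against ZG) and 203 (H2 against H1) genes in CH were 23, 35 and 34 with every library. The first was 172 and the second 63 without the 4 steers, and with no filter the second was 56 and the third 349. In HF the 80, 909 and 2158 genes were 40, 349 and 1199 with every library, 46, 582 and 1294 without the replicate block, and 52, 381 and 1070 with edgeR's quasi-likelihood test without the replicate block. The correlation of ENSBTAG00000021008 with GSTM3 was -0.247 with TMM scaling, and that of SLC4A7 changed sign (-0.0390). The causes were not tested. The 6 shallow libraries, with 1 to 16 GSTM3 reads, cannot place a steer within the range seen here.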
